A study of Arabidopsis thaliana with 54 samples.

Results

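The first day in the cold was described here as a comparison of 3 RNA-seq libraries taken after 24 h at 4 °C with 3 taken at 0 h, just before the move and at the same time of day. The plants were wild-type Arabidopsis thaliana of the accession Col-0 (thale cress), 28 days old at 0 h, and whole rosettes were harvested. The 6 libraries were chosen by their labels for condition (C28P, first cold at 28 days) and time, and they are 6 of the 54 libraries of the series. Each pooled material of 5 samples, and each of the 3 libraries of a group came from 1 of 3 independent experiments, Exp1 to Exp3. Warm plants stood in 200 µmol quanta of light and the cold chamber in 90 µmol, both with a 16 h day. Cold, dimmer light and 1 more day of age therefore came together in the 24 h group and cannot be told apart, and no warm 24 h library was used here. The same step was available in 2 other conditions. C35P plants had their first cold at 35 days, and C28PLT plants had their second, after 3 cold days from day 28 and a lag of 7 warm days. Rosettes hold many cell types, so fewer cells of a type and less RNA per cell cannot be told apart anywhere in these data.

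Arabidopsis survives frost better after days of mild cold, a process called cold acclimation. Its best known route starts with the CBF transcription factors, which bind a short promoter element, the CRT/DRE with the core CCGAC, and switch on COR genes, whose small hydrophilic proteins protect membranes and enzymes against freezing and drying. Acclimating leaves also build up sugars, proline and flavonoids, adjust their photosynthetic apparatus and RNA handling to low temperature, and grow slowly. The circadian clock gates much of this, so that sampling at 1 time of day matters.

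Before the results, a library that stands apart has to be described. The library labelled 0 h of Exp1 stood apart from the other 0 h libraries of its group. Over log2 CPM (read counts scaled to the library size and by TMM, a correction for library composition) its correlation was 0.934 and 0.942 with its own group, which put its closest group member at rank 22 among all other libraries of the series. Its closest match was the C35P 2 h library of Exp1 at r = 0.970, and next came the C28P 4 h library of Exp1 at r = 0.968. In the order Exp1, Exp2 and Exp3, which all values below follow, PRR5, a repressor of the clock that peaks in the day, stood at 77.2, 0.949 and 1.14 CPM at 0 h. FKF1, a blue-light receptor of the flowering pathway, stood at 37.9, 0.644 and 0.619 CPM, and the cold-induced CBF3 at 71.6, 1.02 and 4.14 CPM. In each of the 3 genes the library labelled 0 h of Exp1 was the high one. It was kept in the fit because its label is the only ground for its place, and calls that change without it, and counts or folds that move by over 1.5 times, are given with and without it; the cause of its position was not tested.

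The 6 libraries held 27177568 to 31852078 counts each. TMM factors were 0.984, 0.987 and 0.748 at 0 h, so that the low one was that of Exp3, and 1.12 to 1.16 at 24 h. The 10 genes with most reads took 14.3 to 16.3% of the counts at 0 h and 11.5 to 12.5% at 24 h. Leaf genes dominated, with RBCS1A alone, a small subunit gene of Rubisco, at 3.86% of reads at 0 h. The root markers EXPA7, RHD6 and COBL9 summed to at most 0.112 CPM at 0 h and 0.114 CPM at 24 h. The 5 floral organ markers summed to 0.619 to 5.49 CPM at 0 h and 0.896 to 3.94 CPM at 24 h, and their highest library was Exp2 at both times. The median change also went with transcript length, from a log2 change of -0.34 among the 5183 genes with the shortest transcripts to 0.40 among the 5178 with the longest, and a fit with a length offset was run as an alternative; the part of transcript length in the results was not tested beyond that fit.

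After 24 h in the cold, the rosettes held more mRNA for most of the listed freezing protectants, for flavonoid enzymes, for several steps of starch breakdown and for the machinery that builds ribosomes. They held less for light harvesting and carbon fixation, for water channels, for a part of the cell wall enzymes and for stress ethylene response factors. With edgeR's quasi-likelihood test over 20720 tested genes and Benjamini-Hochberg adjustment, 6038 genes changed at an adjusted p under 0.05, or 29.1% of those tested. Of these, 2873 rose (13.9%) and 3165 fell (15.3%), and 4322 changed at least 2-fold (20.9%). Changes of at least 8-fold were met by 184 risen and 273 fallen genes, and changes of at least 32-fold by 25 and 35. The balance of the directions rests on the scaling. With library totals in place of TMM, 68.8% of the called genes rose, against 47.6%, and the median change of all genes was 0.36 in place of 0.04 on the log2 scale. Without the library labelled 0 h of Exp1, 6961 of 20977 genes were called (33.2%), 3407 of them higher and 3554 lower, and 5554 of the 6038 genes were called in both fits. A total of 3068 genes were called whichever single library of the 6 was left out, 1475 of them risen and 1593 fallen. Fewest rises remained without the 0 h library of Exp3, with 1881.

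**Figure D1:**
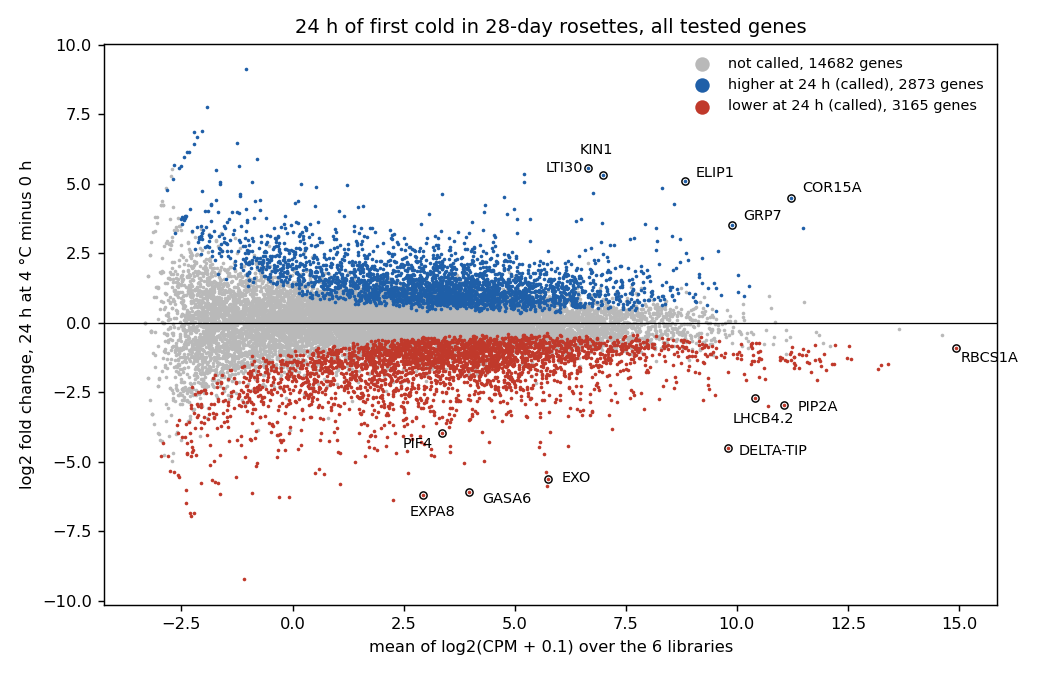
Change of every tested gene between 0 h and 24 h (vertical axis, log2 fold change, 24 h minus 0 h) against its mean level (horizontal axis, mean log2 of CPM + 0.1 over the 6 libraries). Coloured points are the 2873 genes called higher and the 3165 called lower by edgeR, grey points the 14682 not called, and some of the genes described in the text are labelled.

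Most of the listed freezing protectants rose. Of 22 COR and late-embryogenesis-abundant (LEA) genes listed, 21 were tested, 15 rose and 0 fell, with a median log2 change of 3.002 against 0.04 over all genes. Leaving out single libraries gave 11 to 15 risen members. The summed level of the list went from 2594 to 4815 CPM to 24677 to 43345 CPM. COR15A, which encodes a chloroplast protein that stabilises membranes during freezing, stood at 899, 269 and 471 CPM at 0 h and 8189, 15269 and 13600 CPM at 24 h. All 24 h libraries lay far above all 0 h libraries, and the rise was 22.6-fold (log2 4.50, SE 0.54, edgeR adjusted p = 6.37e-08). Over all 20720 tested genes, the 0 h and 24 h libraries did not overlap in CPM in 8816 (42.5%). COR15A went from 0.0501% of all reads to 1.41%, the largest gain of any gene in CPM. KIN2, a small hydrophilic cold-induced protein, stood at 1188, 619 and 917 CPM at 0 h and 8039, 11804 and 8841 CPM at 24 h and rose 10.5-fold (log2 3.40, SE 0.46, edgeR adjusted p = 5.67e-07). Its neighbour KIN1 stood at 20.6, 13.4 and 12.3 CPM at 0 h and 372, 999 and 809 CPM at 24 h, again without overlap, and rose 47.1-fold (log2 5.56, SE 0.66, edgeR adjusted p = 6.33e-08), the largest rise among called genes with at least 5 CPM in a group, the same sign in 3 experiments and a call also without the 0 h library of Exp1. KIN1 with KIN2 and COR15A with COR15B are pairs of close copies, and how reads that fit both were counted is not given in the sources used here.

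Dehydrins, proteins that bind membranes and water when cells dry, rose in several members. LTI30 stood at 62.6, 8.47 and 8.80 CPM at 0 h and 575, 1735.2 and 872 CPM at 24 h, where the 0 h library of Exp1 lay above the other 0 h libraries and below every 24 h library. It rose 39.8-fold (log2 5.31, SE 0.85, edgeR adjusted p = 9.93e-06), and 123-fold without the 0 h library of Exp1. RD29A, the gene most used to report CBF activity, stood at 278, 18.204 and 24.6 CPM at 0 h and 935, 1861 and 969 CPM at 24 h with the same order of libraries and rose 11.7-fold (adjusted p = 0.000153), and 58.8-fold without the 0 h library of Exp1. COR47 and ERD10, 2 acidic dehydrins, rose 8.79-fold (adjusted p = 0.000122) and 8.01-fold (adjusted p = 1.59e-05), and 17.1-fold and 13.4-fold without that library. Without the 24 h library of Exp2 the rise of COR47 was 5.76-fold. COR413IM1, a protein of the chloroplast inner envelope, rose 13.2-fold (log2 3.72, SE 0.56, edgeR adjusted p = 4.10e-06) and LEA14 rose 4.34-fold (log2 2.12, SE 0.57, edgeR adjusted p = 0.00459). Not every member rose: ERD14 stood at 335, 833 and 537 CPM at 0 h and 362, 1042 and 617 CPM at 24 h, and RAB18, the dehydrin known for its response to abscisic acid, at 11.4, 18.8 and 15.9 CPM at 0 h and 10.7, 14.0 and 13.5 CPM at 24 h, with overlapping groups in both. Among the COR and LEA genes that were not called, log2 changes went down to -4.2.

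Some members of the list lost or gained a call without the library labelled 0 h of Exp1. RD29B and LEA4-5 lost theirs (log2 3.63 and 2.83, edgeR adjusted p = 0.0686 and 0.0544), while COR27 and AT4G33980 gained one. The losses were not particular to that library. RD29B was also not called without the 0 h library of Exp2 or Exp3 or the 24 h library of Exp2 (edgeR adjusted p = 0.0789, 0.0864 and 0.141). LEA4-5 was also not called without the 0 h or the 24 h library of Exp2 (edgeR adjusted p = 0.0572 and 0.0773). COR27, a cold-induced regulator of the clock, stood at 64.9, 2.88 and 3.24 CPM at 0 h and 18.4, 70.8 and 28.4 CPM at 24 h. With all libraries its log2 change was 0.73 (adjusted p = 0.491), and without the library labelled 0 h of Exp1 it rose 12.8-fold (log2 3.68, SE 0.79, edgeR adjusted p = 0.000468). AT4G33980, known as COR28, stood at 25.5, 0.881 and 0.952 CPM at 0 h and 2.06, 7.38 and 3.16 CPM at 24 h, and its log2 change of -1.12 (adjusted p = 0.269) became 2.199 (adjusted p = 0.0209).

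The promoters of 3 strongly risen protectants are shown because each holds the CBF-bound core more than once. The sequences are the 250 bases before the annotated start in the RefSeq annotation of TAIR10.1, written 5′ to 3′ in the direction of the gene; they lie upstream of the transcript. Capitals mark CCGAC or its reverse complement GTCGG. COR15A lies on the minus strand of chromosome 2, with this window at chr2:17712331-17712580. RD29A lies on the plus strand of chromosome 5, at chr5:21240467-21240716. LTI30 lies on the plus strand of chromosome 3, at chr3:18940393-18940642.
COR15A: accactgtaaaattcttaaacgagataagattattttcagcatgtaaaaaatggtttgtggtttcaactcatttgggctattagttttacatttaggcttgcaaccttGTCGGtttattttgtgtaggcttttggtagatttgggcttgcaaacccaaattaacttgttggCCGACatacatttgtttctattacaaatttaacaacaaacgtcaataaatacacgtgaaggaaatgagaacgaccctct
RD29A: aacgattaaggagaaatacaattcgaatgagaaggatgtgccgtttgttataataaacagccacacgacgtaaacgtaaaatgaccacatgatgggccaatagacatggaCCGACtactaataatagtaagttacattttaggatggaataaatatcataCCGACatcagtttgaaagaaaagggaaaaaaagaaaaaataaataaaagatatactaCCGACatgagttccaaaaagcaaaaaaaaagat
LTI30: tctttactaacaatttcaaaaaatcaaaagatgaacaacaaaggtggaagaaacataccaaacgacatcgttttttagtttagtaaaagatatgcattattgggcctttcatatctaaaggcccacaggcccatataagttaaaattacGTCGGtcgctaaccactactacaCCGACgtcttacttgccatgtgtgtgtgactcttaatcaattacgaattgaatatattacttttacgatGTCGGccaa
The cores of COR15A begin 142 and 79 bases before the start, those of RD29A 140, 90 and 33 bases, and those of LTI30 101, 78 and 9 bases. KIN1, with the largest rise, has 0 copies of CCGAC in this window, as have COR15B, COR47, ERD10, KIN2, COR413IM1 and LEA14. That says only that these letters are not in these 250 bases. Of the windows of the 21 tested COR and LEA genes, 8 (38.1%) hold the core.

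Read on both strands, CCGAC was found in 13.0% of the 20719 tested genes with such a window. Among the genes that rose at least 16-fold it was found in 16 of 56, or 28.6% (Wilson 95% interval 18.4 to 41.5%), and among the 14681 not called in 12.8%. The share was 17.2% for rises of 8- to 16-fold, 16.2% for 4- to 8-fold, 15.3% for 2- to 4-fold and 15.8% for smaller rises. On the falling side it was 12.7% for falls under 2-fold, 10.96%, 10.2% and 6.63% in the next 3 steps, and 14.95% for falls of at least 16-fold. The letters ACGTG, the core of the element bound by abscisic acid-responsive factors, were in 23.4% of all windows, in 39.3% of those of genes that rose at least 16-fold and in 34.6% of those that fell at least 16-fold. These are descriptions of letters in windows, and the intervals cover counting error only.

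**Figure D2:**
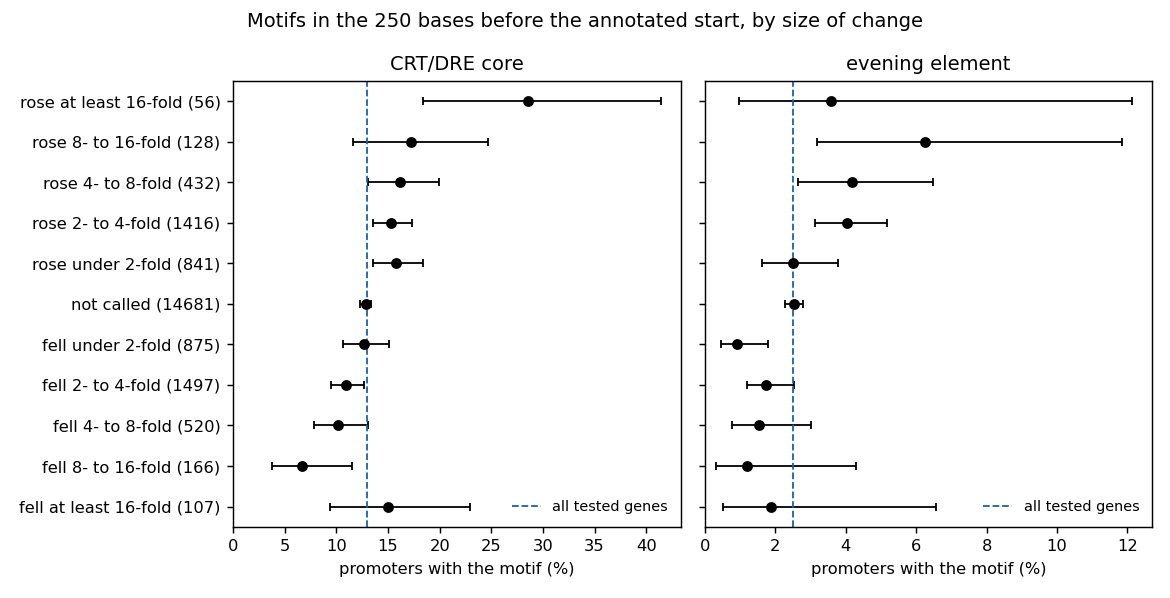
Share of promoter windows (250 bases before the start, both strands) that hold the CRT/DRE core CCGAC or the evening element AAAATATCT, in percent, by size and direction of the change at 24 h. Points are shares with Wilson 95% intervals, the dashed line is the share over all tested genes, and the CCGAC share is highest, at 28.6%, in the 56 genes that rose at least 16-fold.

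Upstream of the COR genes, few regulators differed at this time. Of 15 genes for the CBF factors and their known regulators, 1 rose (OST1, a kinase of cold and abscisic acid signalling, 1.76-fold (adjusted p = 0.00515)) and 0 fell. Without the 0 h library of Exp3 OST1 was not called (adjusted p = 0.0551) and 0 rose. CBF1, CBF2 and CBF3 are neighbouring close copies. CBF3 stood at 71.6, 1.02 and 4.14 CPM at 0 h and 9.50, 47.1 and 25.8 CPM at 24 h, and CBF2 at 36.5, 6.98 and 36.1 CPM at 0 h and 11.9, 65.0 and 34.2 CPM at 24 h, with overlapping groups in both. Without the library labelled 0 h of Exp1, CBF3 was higher at 24 h by a log2 change of 3.44 (edgeR adjusted p = 0.000423). In that fit 3 of the 15 rose, against 16.2% of all tested genes. Of 10 factors known to act beside or after the CBFs, 2 rose and 2 fell, against 13.9% and 15.3% of all tested genes. Only 1 rose without the 0 h library of Exp2, that of Exp3 or the 24 h library of Exp2, and 1 fell when Exp1 of either time or Exp3 of 24 h was dropped. RVE2, a clock-related MYB factor, stood at 8.15, 2.203 and 4.90 CPM at 0 h and 17.3, 54.7 and 28.0 CPM at 24 h and rose 6.56-fold (log2 2.71, SE 0.59, edgeR adjusted p = 0.00058), and MYB73, another MYB factor, stood at 21.1, 40.1 and 12.5 CPM at 0 h and 4.57, 8.52 and 5.22 CPM at 24 h and fell 4.02-fold (log2 -2.01, SE 0.51, edgeR adjusted p = 0.00262). ZAT12, a zinc finger factor of the first hours of cold, stood at 37.5, 40.1 and 75.8 CPM at 0 h and 24.7, 109 and 54.6 CPM at 24 h.

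**Figure D3:**
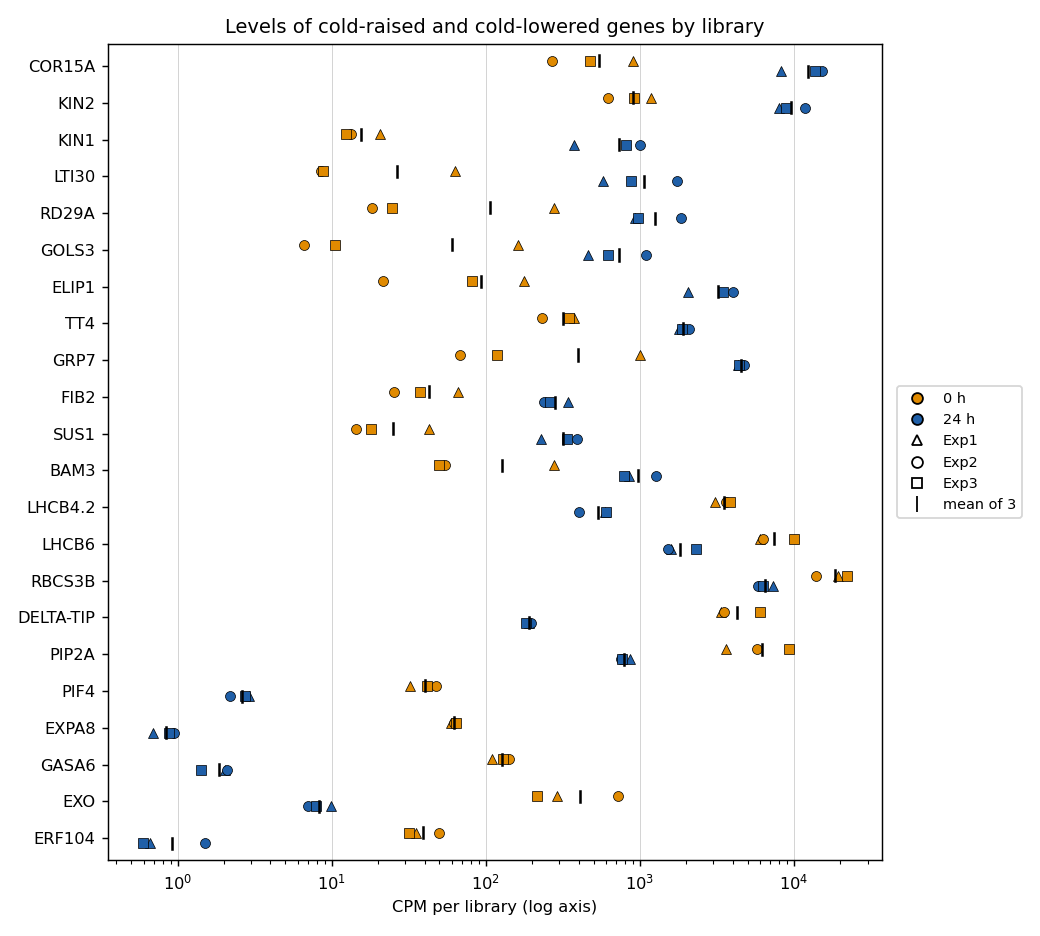
Level of 22 genes in each of the 6 libraries, in CPM on a log axis. Orange marks 0 h and blue 24 h, triangles, circles and squares mark Exp1, Exp2 and Exp3, and bars are means of 3; the 0 h library of Exp1 lies above the other 0 h libraries in RD29A, GOLS3 and GRP7, and below all 24 h libraries in each of them.

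Sugar genes split by step. Of 15 genes of starch breakdown and synthesis 9 rose and 1 fell, with a summed level of 527 to 987 CPM at 0 h and 1805 to 2135 CPM at 24 h. BAM3, the chloroplast beta-amylase that releases maltose, stood at 277, 54.7 and 49.6 CPM at 0 h and 844, 1281 and 794 CPM at 24 h. No library overlapped, and the rise was 7.65-fold (log2 2.94, SE 0.57, edgeR adjusted p = 0.000149), and 18.7-fold without the 0 h library of Exp1. PHS2, the cytosolic glucan phosphorylase, stood at 74.2, 6.10 and 6.66 CPM at 0 h and 126, 134 and 121 CPM at 24 h and rose 4.38-fold (adjusted p = 0.00447), and 19.9-fold without the 0 h library of Exp1. ISA3, a debranching enzyme, stood at 9.24, 1.83 and 1.81 CPM at 0 h and 30.7, 18.3 and 29.5 CPM at 24 h and rose 6.07-fold (adjusted p = 0.000271), and 14.4-fold without the 0 h library of Exp1. The exporter of maltose from the chloroplast, MEX1, was the 1 that fell, 1.96-fold (log2 -0.97, SE 0.23, edgeR adjusted p = 0.00145). Genes of starch synthesis were among the 9: APL3, of the enzyme that makes ADP-glucose, rose 2.17-fold (adjusted p = 0.0114) and SS1, a starch synthase, rose 2.09-fold (adjusted p = 0.00937). Neither was called without the 0 h library of Exp3 (adjusted p = 0.0701 and 0.0621), nor APL3 without the 24 h library of Exp3 (adjusted p = 0.0603). The number of risen members was 5 without the 0 h library of Exp2 and 3 without that of Exp3, while 11 rose without that of Exp1.

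For soluble sugars, SUS1, a sucrose synthase, stood at 42.8, 14.4 and 17.8 CPM at 0 h and 228, 388 and 337 CPM at 24 h and rose 12.7-fold (log2 3.67, SE 0.44, edgeR adjusted p = 6.90e-08), and 19.7-fold without the 0 h library of Exp1. GOLS3, which makes galactinol for raffinose, stood at 163, 6.64 and 10.5 CPM at 0 h and 461, 1101 and 619 CPM at 24 h and rose 12.1-fold (log2 3.60, SE 0.78, edgeR adjusted p = 0.000521), and 85.0-fold without the 0 h library of Exp1. RS5, the raffinose synthase, rose 3.85-fold (log2 1.95, SE 0.40, edgeR adjusted p = 0.000269), and GOLS1 and GOLS2, the stress-induced members of the galactinol synthase family, stood at 26.5, 97.7 and 27.9 CPM at 0 h and 42.5, 119 and 49.2 CPM at 24 h and 3.96, 22.3 and 17.4 CPM at 0 h and 1.73, 7.57 and 6.73 CPM at 24 h. At the vacuole the invertase ATBETAFRUCT4 fell 6.97-fold (log2 -2.80, SE 0.50, edgeR adjusted p = 4.11e-05), and the tonoplast sugar channels SWEET16 and SWEET17 fell 9.93-fold (adjusted p = 6.58e-06) and 5.78-fold (adjusted p = 2.12e-06). The tonoplast sugar importer TMT2 stood at 34.6, 14.7 and 11.8 CPM at 0 h and 57.1, 57.0 and 52.9 CPM at 24 h and rose 2.73-fold (adjusted p = 0.000522), and 4.203-fold without the 0 h library of Exp1. Among 5 proline genes 1 rose and 1 fell, against 13.9% and 15.3% of all tested genes. Of these 5, 0 fell without the 0 h library of Exp2 or the 24 h library of Exp2 or Exp3. P5CS2, an isoform of the enzyme of the committed step of proline synthesis, stood at 90.3, 37.0 and 42.4 CPM at 0 h and 354, 454 and 362 CPM at 24 h and rose 6.89-fold (log2 2.79, SE 0.41, edgeR adjusted p = 3.04e-06), while P5CS1, the isoform best known from salt and drought, stood at 36.4, 53.1 and 46.2 CPM at 0 h and 59.8, 89.4 and 98.4 CPM at 24 h.

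Membrane lipid genes moved both ways. Of 14 genes 3 rose and 3 fell, against 13.9% and 15.3% of all genes; 0 fell when scaled by library totals, and 1 when the 0 h library of Exp2 or the 24 h library of Exp3 or Exp1 was dropped. DGAT1, which makes triacylglycerol, stood at 16.8, 1.76 and 1.90 CPM at 0 h and 23.8, 29.5 and 27.6 CPM at 24 h and rose 3.94-fold (adjusted p = 0.000842), and 14.7-fold without the 0 h library of Exp1. FAD2, the desaturase of the endoplasmic reticulum, fell 1.78-fold (log2 -0.83, SE 0.21, edgeR adjusted p = 0.003). ADS2, a desaturase known from work on cold, stood at 646, 80.1 and 84.0 CPM at 0 h and 427, 571 and 425 CPM at 24 h, where the library labelled 0 h of Exp1 was above the 24 h libraries. It was not called with that library (log2 0.81, adjusted p = 0.17) and rose 5.79-fold (log2 2.53, SE 0.39, edgeR adjusted p = 4.28e-06) without it. Of 8 cuticle genes 3 fell and 0 rose, against 15.3% and 13.9% of all tested genes. Among the fallen were KCS1 (5.54-fold (adjusted p = 7.90e-05)) and CUT1 (2.33-fold (adjusted p = 0.000287)), which elongate fatty acids for wax.

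Most flavonoid pathway genes rose. Of 16 genes from phenylalanine to anthocyanins 13 rose and 0 fell, with 11 risen without the 0 h library of Exp1, and the summed level went from 903 to 1628 CPM to 5557 to 6187 CPM. TT4, the chalcone synthase that opens the pathway, stood at 375, 229.7 and 347 CPM at 0 h and 1789, 2072 and 1868 CPM at 24 h and rose 6.02-fold (log2 2.59, SE 0.43, edgeR adjusted p = 1.56e-05). F3H, the next hydroxylase on the way to flavonols and anthocyanins, stood at 181, 60.1 and 125 CPM at 0 h and 618, 918 and 737 CPM at 24 h and rose 6.20-fold (log2 2.63, SE 0.37, edgeR adjusted p = 1.09e-06). TT7, the hydroxylase of the B ring, stood at 10.0, 8.68 and 8.38 CPM at 0 h and 127, 110.4 and 122 CPM at 24 h and rose 13.2-fold (log2 3.73, SE 0.73, edgeR adjusted p = 0.000173). FLS1, the flavonol synthase, rose 3.67-fold (adjusted p = 0.000181), and TT19, a carrier needed for anthocyanins in the vacuole, rose 4.70-fold (adjusted p = 0.000118). In none of these 5 genes did the groups overlap, which held for 42.5% of all tested genes. The late anthocyanin gene DFR was not called, at 15.04, 18.5 and 20.4 CPM at 0 h and 57.2, 24.5 and 43.1 CPM at 24 h. Of 8 regulators 5 rose. MYB12 and MYB111, which activate flavonol genes, stood at 2.32, 0.475 and 0.238 CPM at 0 h and 6.57, 8.36 and 6.92 CPM at 24 h and 33.7, 3.90 and 5.23 CPM at 0 h and 72.3, 57.4 and 49.4 CPM at 24 h. They rose 7.11-fold (adjusted p = 5.57e-05) and 4.17-fold (adjusted p = 0.00115), and 19.7-fold and 13.1-fold without the 0 h library of Exp1. PAP2, an activator of anthocyanin genes, rose 5.05-fold (log2 2.34, SE 0.64, edgeR adjusted p = 0.00525), and its close relative PAP1 stood at 5.01, 10.8 and 23.9 CPM at 0 h and 23.9, 20.1 and 27.0 CPM at 24 h.

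Photosynthesis genes fell by modest folds from very high levels. Of 28 antenna and photosystem genes 25 fell and 0 rose, with a median log2 change of -1.31, and their summed level dropped from 149970 to 186300 CPM to 76628 to 86061 CPM. With library totals 22 of the 28 fell, and 24 with the length offset. LHCB4.2, a minor antenna protein of photosystem II, stood at 3080.1, 3608 and 3826 CPM at 0 h and 597, 401 and 603 CPM at 24 h and fell 6.57-fold (log2 -2.72, SE 0.27, edgeR adjusted p = 3.14e-09). LHCB6, another minor antenna protein, stood at 6015, 6317 and 10053 CPM at 0 h and 1597, 1517 and 2311 CPM at 24 h and fell 4.13-fold (log2 -2.04, SE 0.26, edgeR adjusted p = 1.79e-07). LHCB2.3, part of the main antenna, stood at 1602, 1559 and 1662 CPM at 0 h and 249.5, 166 and 285 CPM at 24 h and fell 6.88-fold (log2 -2.78, SE 0.30, edgeR adjusted p = 1.09e-08). The 3 genes not called were CAB1, CAB2 and LHCA5. CAB1 and CAB2 are copies of LHCB1, as is LHCB1.5, which stood at 15066, 16809 and 17946 CPM at 0 h and 4406, 5919 and 5440 CPM at 24 h and fell 3.16-fold (adjusted p = 5.12e-05). CAB2 stood at 14672, 10666 and 16996 CPM at 0 h and 13310, 10494 and 12845 CPM at 24 h with overlapping groups, and CAB1 at 27635, 25484 and 34790 CPM at 0 h and 20913, 21468 and 22802 CPM at 24 h without overlap (adjusted p = 0.106); how reads were shared among the LHCB1 copies is not given in the sources used here.

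Of 12 carbon fixation genes 9 fell and 0 rose, and 7 fell with library totals. RBCS3B, a Rubisco small subunit gene, stood at 19215, 13889 and 21983 CPM at 0 h and 7292, 5864 and 6299 CPM at 24 h and fell 2.83-fold (log2 -1.50, SE 0.33, edgeR adjusted p = 0.000616). RBCS1A stood at 44833, 31480 and 54495 CPM at 0 h and 24955, 21881 and 22910 CPM at 24 h and fell 1.88-fold (adjusted p = 0.0101), with an adjusted p of 0.0774 without the 0 h library of Exp3, so that its call was lost there. GAPA, a subunit of the Calvin cycle's glyceraldehyde phosphate dehydrogenase, fell 2.83-fold (log2 -1.50, SE 0.26, edgeR adjusted p = 3.83e-05), and CA1, a carbonic anhydrase, fell 2.58-fold (log2 -1.37, SE 0.33, edgeR adjusted p = 0.00183). SBPASE and HCEF1, further enzymes of the cycle, stood at 819, 687 and 787 CPM at 0 h and 697, 498 and 706 CPM at 24 h and 521, 443 and 475 CPM at 0 h and 509.9, 382 and 512 CPM at 24 h, with overlapping groups. Of 9 photorespiration genes 7 fell, with 3 called under library totals 4 without the 24 h library of Exp2 and 5 without the 0 h library of Exp1. The peroxisomal hydroxypyruvate reductase HPR stood at 562, 396 and 424 CPM at 0 h and 150, 123 and 132 CPM at 24 h and fell 3.41-fold (log2 -1.77, SE 0.26, edgeR adjusted p = 1.86e-06), and the glycolate oxidase GOX2 fell 2.07-fold (log2 -1.05, SE 0.20, edgeR adjusted p = 9.92e-05). Of 16 chlorophyll synthesis genes 4 fell and 0 rose, against 15.3% and 13.9% of all tested genes. Under library totals 1 fell, and 1 rose without the 0 h library of Exp1. CHLM, a methyltransferase of the magnesium branch, stood at 351, 346 and 564 CPM at 0 h and 194, 106 and 145 CPM at 24 h and fell 2.84-fold (log2 -1.50, SE 0.23, edgeR adjusted p = 3.51e-06).

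Of 11 photoprotection genes 4 rose and 1 fell, against 13.9% and 15.3% of all tested genes. The count of fallen genes was 0 without the 0 h library of Exp3 or any single 24 h library, and 3 rose without the 0 h library of Exp1. ELIP1, an antenna relative that appears in stressed chloroplasts, stood at 176, 21.6 and 81.2 CPM at 0 h and 2055, 4037 and 3482 CPM at 24 h and rose 34.3-fold (log2 5.10, SE 0.54, edgeR adjusted p = 7.63e-09), and 62.2-fold without the 0 h library of Exp1. Its copy ELIP2 stood at 141, 17.3 and 55.4 CPM at 0 h and 1421, 2396 and 2265 CPM at 24 h and rose 28.5-fold (adjusted p = 2.83e-07), and 55.9-fold without the 0 h library of Exp1. NPQ1, the enzyme that makes zeaxanthin in strong light, stood at 17.9, 6.27 and 7.52 CPM at 0 h and 29.8, 25.4 and 25.8 CPM at 24 h and rose 2.55-fold (adjusted p = 0.0034), and 3.92-fold without the 0 h library of Exp1. NPQ4, the sensor of lumen acidity, stood at 3909, 3055 and 5159.6 CPM at 0 h and 3327, 2877 and 3322 CPM at 24 h, with overlapping groups. Among 16 antioxidant genes 2 rose and 3 fell, shares near those of all genes (13.9% and 15.3%), and 1 fell without the 24 h library of Exp1 or the 0 h library of Exp3. AOX1A, the alternative oxidase of mitochondria, rose 2.33-fold (log2 1.22, SE 0.26, edgeR adjusted p = 0.000472), CAT1, a catalase, rose 2.55-fold (log2 1.35, SE 0.32, edgeR adjusted p = 0.00141), and VTC5, an enzyme of ascorbate synthesis, fell 2.56-fold (log2 -1.36, SE 0.32, edgeR adjusted p = 0.0012).

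All 20 ribosome assembly genes on the list rose, against 13.9% of all tested genes, with a median log2 change of 2.02. Their summed level went from 698 to 1204 CPM to 2714 to 3491 CPM, and 20 rose also with the replicate block, with the length offset, with library totals and in DESeq2. Leaving out single libraries gave 19 or 20, the member lost being REIL1, a maturation factor of the large subunit whose adjusted p reached 0.137, 0.155 and 0.206 when the Exp2 or Exp3 library of 0 h or the Exp2 library of 24 h was dropped. FIB2, a fibrillarin that methylates ribosomal RNA, stood at 65.6, 25.5 and 37.6 CPM at 0 h and 339.7, 238 and 261 CPM at 24 h and rose 6.51-fold (log2 2.703, SE 0.44, edgeR adjusted p = 1.35e-05). NUC-L1, a nucleolin of the nucleolus, stood at 341, 146 and 139 CPM at 0 h and 1095, 849 and 883 CPM at 24 h and rose 4.52-fold (log2 2.18, SE 0.44, edgeR adjusted p = 0.000245). NAP57, the dyskerin of the pseudouridine complex, stood at 62.4, 42.0 and 49.9 CPM at 0 h and 331, 171 and 236 CPM at 24 h and rose 4.79-fold (log2 2.26, SE 0.54, edgeR adjusted p = 0.00151). NRPA2, a subunit of the polymerase that transcribes ribosomal RNA, rose 4.52-fold (log2 2.18, SE 0.53, edgeR adjusted p = 0.00171).

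Of 8 RNA chaperone genes 3 rose, against 13.9% of all tested genes, and 1 without the 0 h library of Exp2 or Exp3. GRP7, a glycine-rich RNA-binding protein driven by both the clock and cold, stood at 1000.3, 67.6 and 118 CPM at 0 h and 4351, 4720.4 and 4422 CPM at 24 h. Its 0 h libraries spanned more than its 24 h libraries, yet the groups did not overlap, and it rose 11.4-fold (log2 3.51, SE 0.56, edgeR adjusted p = 8.02e-06), and 48.6-fold without the 0 h library of Exp1. Its relative GRP8 stood at 520.2, 91.8 and 103 CPM at 0 h and 475, 757 and 583 CPM at 24 h, with the library labelled 0 h of Exp1 inside the 24 h range, and rose 2.54-fold (adjusted p = 0.0133), and 6.21-fold without the 0 h library of Exp1. The call of GRP8 was lost without the 24 h library of Exp2 (adjusted p = 0.0609) and at 0 h without Exp2 (0.117) and Exp3 (0.121). CSP3, a cold shock domain protein, stood at 27.0, 28.3 and 33.7 CPM at 0 h and 44.1, 39.6 and 38.0 CPM at 24 h, and LOS4, an RNA helicase, at 32.2, 26.6 and 24.7 CPM at 0 h and 41.4, 35.2 and 36.7 CPM at 24 h; neither was called.

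**Figure D4:**
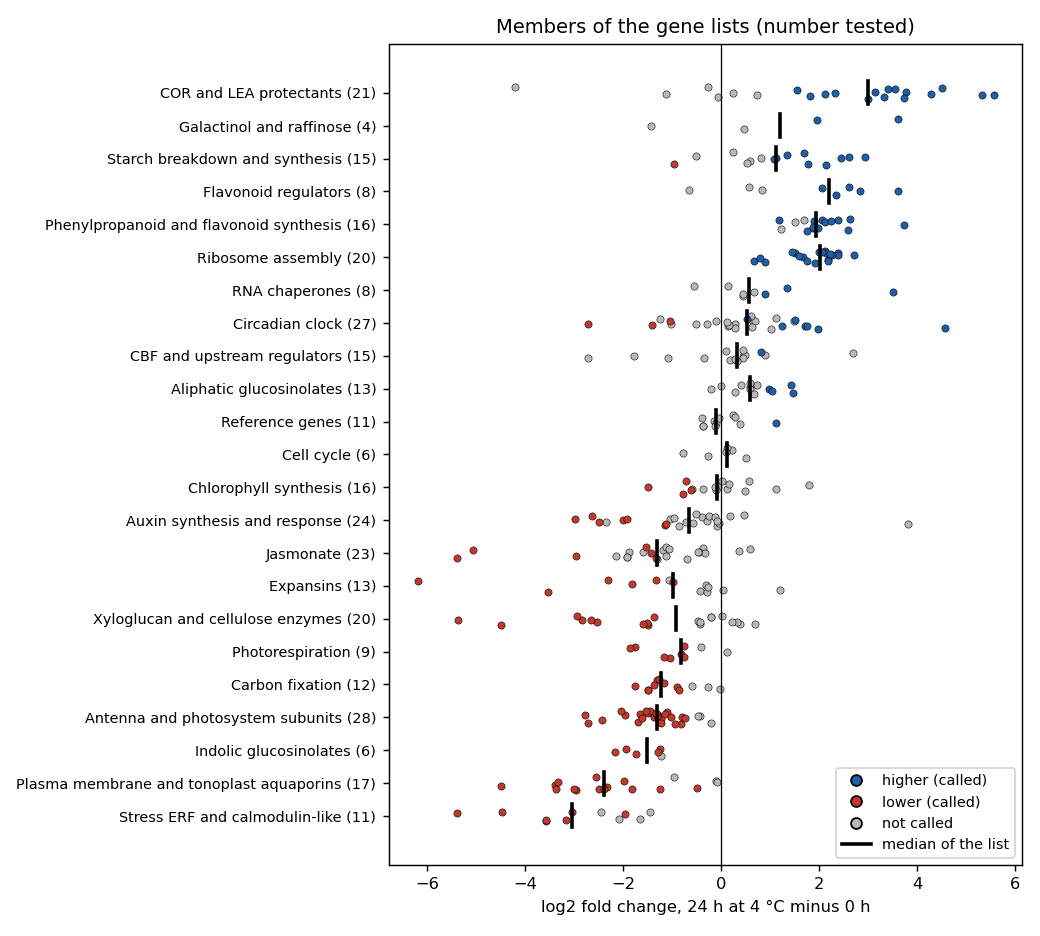
Log2 change at 24 h of each tested member of 23 gene lists. Each point is 1 gene, blue where called higher, red where called lower and grey where not called, and bars are the medians; all 20 ribosome assembly genes lie above 0, and 14 of 17 aquaporins are called lower.

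Water channels fell together. Of 17 plasma membrane and tonoplast aquaporins 14 fell and 0 rose, against 15.3% of all genes, with a median log2 change of -2.39 and a summed level of 16107 to 31470 CPM at 0 h and 3704 to 4340.4 CPM at 24 h. The count was 12 under library totals, 14 with the length offset and 13 in each fit that left out 1 library. DELTA-TIP, a tonoplast channel, stood at 3340.5, 3524 and 6009.9 CPM at 0 h and 191, 196 and 183 CPM at 24 h and fell 22.6-fold (log2 -4.50, SE 0.50, edgeR adjusted p = 2.33e-08). PIP2A, a plasma membrane channel, stood at 3633, 5723 and 9241 CPM at 0 h and 859, 752 and 768 CPM at 24 h and fell 7.81-fold (log2 -2.97, SE 0.52, edgeR adjusted p = 3.30e-05). TIP2, another tonoplast channel, stood at 3539, 4287 and 6676 CPM at 0 h and 484, 746 and 581 CPM at 24 h and fell 8.01-fold (adjusted p = 1.72e-06). The falls of these 3 were without overlap, as in 42.5% of all tested genes, and the 24 h libraries lay closer together than the 0 h libraries. The exceptions were PIP2;4, PIP2;5 and PIP2E. PIP2E stood at 623, 855 and 918 CPM at 0 h and 648, 898 and 694 CPM at 24 h and PIP2;5 at 23.5, 26.6 and 46.9 CPM at 0 h and 25.1, 40.3 and 24.99 CPM at 24 h, with overlapping groups, and PIP2;4 at 14.2, 11.9 and 17.0 CPM at 0 h and 7.38, 8.06 and 6.64 CPM at 24 h without overlap (adjusted p = 0.054).

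A part of the cell wall genes fell. Over all tested genes 15.3% fell and 13.9% rose. Of 13 expansins, which loosen walls for growth, 6 fell and 0 rose, with 1 risen without the 0 h library of Exp1. EXPA8 stood at 59.4, 62.0 and 64.3 CPM at 0 h and 0.687, 0.950 and 0.883 CPM at 24 h and fell 73.2-fold (log2 -6.19, SE 0.73, edgeR adjusted p = 6.05e-08). EXPA11 stood at 65.3, 52.7 and 122 CPM at 0 h and 13.4, 16.9 and 18.4 CPM at 24 h and fell 4.94-fold (log2 -2.30, SE 0.46, edgeR adjusted p = 0.000224). EXPA10 was among those that did not pass, at 92.1, 93.4 and 143 CPM at 0 h and 78.3, 130.5 and 129.7 CPM at 24 h. Of 20 xyloglucan and cellulose enzymes 10 fell and 0 rose, with 6 called without the 0 h library of Exp2. XTH7, which cuts and rejoins xyloglucan, stood at 307, 348 and 697 CPM at 0 h and 81.0, 37.7 and 68.7 CPM at 24 h and fell 7.22-fold (log2 -2.85, SE 0.48, edgeR adjusted p = 2.14e-05), and EXGT-A3, of the same family, fell 5.84-fold (log2 -2.55, SE 0.49, edgeR adjusted p = 0.000119). The genes of cellulose synthase subunits CESA1, CEV1 and CESA6 stood within overlapping ranges, CESA1 at 102, 112 and 75.9 CPM at 0 h and 161, 91.6 and 109 CPM at 24 h. The cell cycle genes were not called, with 0 of 6 risen or fallen by edgeR.

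Light signalling genes moved both ways, and auxin genes that passed the test fell. Of 9 light signalling genes around the PIF factors and HY5, 3 fell and 2 rose, against 15.3% and 13.9% of all tested genes. HY5, a factor that promotes light responses, was one of the risen (adjusted p = 0.0439) and lost its call in each fit that left out 1 library (adjusted p from 0.0532 to 0.188). PIF4, a growth-promoting factor of light and warmth, stood at 32.02, 47.2 and 41.8 CPM at 0 h and 2.90, 2.17 and 2.74 CPM at 24 h and fell 15.5-fold (log2 -3.95, SE 0.29, edgeR adjusted p = 1.97e-12), and PIL6, known as PIF5, fell 2.04-fold (adjusted p = 0.00356). HYH, a close relative of HY5, stood at 33.6, 18.17 and 28.0 CPM at 0 h and 86.9, 68.4 and 81.1 CPM at 24 h and rose 2.97-fold (log2 1.57, SE 0.28, edgeR adjusted p = 5.30e-05). Of 24 auxin genes 7 fell and 0 rose, against 15.3% and 13.9% of all tested genes. SAUR20, a small auxin-induced growth gene, stood at 16.5, 20.5 and 37.2 CPM at 0 h and 3.35, 2.58 and 3.36 CPM at 24 h and fell 7.98-fold (log2 -2.996, SE 0.74, edgeR adjusted p = 0.00209), and IAA7, an auxin signalling repressor, fell 2.23-fold (log2 -1.16, SE 0.24, edgeR adjusted p = 0.000278). Of 19 gibberellin genes tested, 7 fell and 3 rose, against 15.3% and 13.9% of all tested genes. Only 1 of the 19 rose without the 0 h library of Exp2 or of Exp3. The gibberellin-regulated GASA6 stood at 109.8, 141 and 129 CPM at 0 h and 2.03, 2.09 and 1.42 CPM at 24 h and fell 68.3-fold (log2 -6.09, SE 0.67, edgeR adjusted p = 1.67e-08). The DELLA repressors RGA1, GAI and RGL1 fell 1.93-fold (adjusted p = 0.00148), 2.37-fold (adjusted p = 0.000132) and 4.17-fold (adjusted p = 1.71e-05), and RGL1 stood at 23.3, 51.5 and 33.1 CPM at 0 h and 5.80, 10.5 and 9.58 CPM at 24 h. The receptor GID1A rose 1.70-fold (log2 0.77, SE 0.21, edgeR adjusted p = 0.00485). GA20OX1, a step of gibberellin synthesis, fell 4.11-fold (log2 -2.04, SE 0.56, edgeR adjusted p = 0.00527), and GA2OX2, which inactivates the hormone, fell 7.202-fold (adjusted p = 0.000152), or 4.36-fold without the 0 h library of Exp2. Of 7 brassinosteroid genes 0 rose (1 without the 0 h library of Exp3) and 2 fell, against 13.9% and 15.3% of all tested genes. CPD, a synthesis gene, fell 2.48-fold (edgeR adjusted p = 0.000616), and BAS1, an inactivating enzyme, fell 5.01-fold (edgeR adjusted p = 0.000928).

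The steepest falls included EXO, PHI-1 and TCH4. EXO, a cell wall protein of the brassinosteroid response, stood at 288, 719 and 216 CPM at 0 h and 9.86, 7.03 and 7.89 CPM at 24 h and fell 49.4-fold (log2 -5.63, SE 0.85, edgeR adjusted p = 3.72e-06). PHI-1, of the same family, stood at 319.5, 832 and 197 CPM at 0 h and 10.99, 7.28 and 4.99 CPM at 24 h and fell 58.0-fold (log2 -5.86, SE 1.20, edgeR adjusted p = 0.000278), and TCH4, a touch-induced xyloglucan enzyme, stood at 229.9, 749 and 152 CPM at 0 h and 10.8, 8.88 and 7.67 CPM at 24 h and fell 41.4-fold (log2 -5.37, SE 0.97, edgeR adjusted p = 5.75e-05). In these 3 genes the 0 h library of Exp2 was the highest, and without it the falls were 30.5-fold, 33.3-fold and 21.0-fold. Of 11 stress ethylene response factors and calmodulin-like genes 7 fell and 0 rose, and the summed level went from 410.0 to 734 CPM to 58.2 to 100.4 CPM. ERF104, a factor of defence signalling, stood at 35.4, 49.9 and 31.5 CPM at 0 h and 0.657, 1.49 and 0.598 CPM at 24 h and fell 42.2-fold (log2 -5.40, SE 0.72, edgeR adjusted p = 4.50e-07). ERF105 stood at 14.9, 19.7 and 10.2 CPM at 0 h and 0.508, 0.923 and 0.570 CPM at 24 h and fell 22.2-fold (adjusted p = 9.85e-06), and TCH2, a calmodulin-like touch gene, stood at 224, 359 and 396 CPM at 0 h and 34.0, 44.1 and 30.0 CPM at 24 h and fell 9.05-fold (log2 -3.18, SE 0.54, edgeR adjusted p = 2.49e-05).

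Some jasmonate genes fell, and salicylate and WRKY genes moved both ways. Of 23 jasmonate genes 6 fell and 0 rose, against 15.3% and 13.9% of all tested genes. Under the replicate block 10 fell, and 3 fell without the 24 h library of Exp1 and 2 without the 0 h library of Exp2. AOC4, a step of jasmonate synthesis, stood at 31.4, 63.6 and 52.2 CPM at 0 h and 13.3, 27.0 and 17.8 CPM at 24 h and fell 2.53-fold (log2 -1.34, SE 0.36, edgeR adjusted p = 0.00423). JAZ7, a repressor and early marker of jasmonate, stood at 1.91, 32.2 and 2.14 CPM at 0 h and 0.299, 0.299 and 0.256 CPM at 24 h and fell 42.0-fold (adjusted p = 0.00353). Its call was lost without the 0 h library of Exp2, the high one, where the log2 change was -2.81 (adjusted p = 0.137). VSP1, a late jasmonate gene, stood at 12.5, 133 and 15.1 CPM at 0 h and 8.39, 93.6 and 14.1 CPM at 24 h, so that both Exp2 libraries were the high ones of their groups. Of 18 salicylate and WRKY genes 2 rose and 4 fell, against 13.9% and 15.3% of all tested genes. Without the 0 h library of Exp2, 2 of the 18 fell. PR5, a pathogenesis-related protein, stood at 118, 102 and 73.0 CPM at 0 h and 229.6, 438 and 472 CPM at 24 h and rose 3.89-fold (log2 1.96, SE 0.53, edgeR adjusted p = 0.00469), WRKY6 rose 3.15-fold (log2 1.66, SE 0.32, edgeR adjusted p = 0.000126) and WRKY22 fell 3.93-fold (log2 -1.97, SE 0.46, edgeR adjusted p = 0.00113).

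Abscisic acid genes moved both ways, within synthesis too. NCED3, the step that limits synthesis of the hormone under stress, stood at 4.83, 2.88 and 2.38 CPM at 0 h and 12.3, 48.1 and 27.0 CPM at 24 h and rose 8.64-fold (log2 3.11, SE 0.45, edgeR adjusted p = 2.16e-06). CYP707A3, which breaks the hormone down, stood at 26.5, 30.9 and 18.4 CPM at 0 h and 0.837, 1.52 and 0.570 CPM at 24 h and fell 25.7-fold (log2 -4.68, SE 0.76, edgeR adjusted p = 1.30e-05). In both the groups did not overlap, as in 42.5% of all tested genes. ABA2, another gene of synthesis, fell 1.89-fold (adjusted p = 0.00252), and was not called without the 0 h library of Exp3 (log2 -0.56, adjusted p = 0.0822). Of 18 tested members 4 rose and 2 fell, against 13.9% and 15.3% of all tested genes. Without the library labelled 0 h of Exp1, 7 of the 18 rose, against 16.2% of all tested genes. HAI2 and ABI1, phosphatases that restrain the response, rose 12.2-fold (adjusted p = 0.00108) and 2.86-fold (adjusted p = 0.00024), while ABF3, a factor of the response, stood at 6.25, 10.3 and 10.4 CPM at 0 h and 9.17, 9.61 and 15.1 CPM at 24 h.

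In the glucosinolate pathways, most indolic genes fell and some aliphatic genes rose. The counts of this paragraph are to be read beside the 13.9% of all tested genes that rose and the 15.3% that fell. Of 6 genes of the indolic branch, defence compounds made from tryptophan, 5 fell and 0 rose, with 2 called without the 0 h library of Exp2 and 3 without the 24 h library of Exp3. CYP79B3, which starts the branch, stood at 35.0, 108 and 69.4 CPM at 0 h and 20.4, 14.96 and 12.0 CPM at 24 h and fell 4.48-fold (log2 -2.16, SE 0.53, edgeR adjusted p = 0.00173), and its activator MYB34 fell 3.83-fold (log2 -1.94, SE 0.52, edgeR adjusted p = 0.0042). Of 13 genes of the aliphatic branch, made from methionine, 4 rose and 0 fell, with 2 called without the 0 h library of Exp3 and 7 with the length offset. MAM1, which elongates the methionine chain, stood at 66.2, 84.4 and 48.6 CPM at 0 h and 184, 194 and 169 CPM at 24 h and rose 2.75-fold (log2 1.46, SE 0.39, edgeR adjusted p = 0.00415). Whether the branches differ was not tested. Of 11 genes known from sugar starvation and darkness 4 fell and 1 rose, though without 1 library 0 fell (24 h, Exp1), 1 (0 h, Exp2, and 24 h, Exp3) or 2 (0 h, Exp3). TPS10, of the trehalose phosphate synthase family, rose 2.63-fold (log2 1.397, SE 0.39, edgeR adjusted p = 0.00544). Of 4 nitrate assimilation genes 0 were called by edgeR, and 1 rose with the replicate block and 1 without the 0 h library of Exp1; NIR1, the nitrite reductase, stood at 239.6, 289 and 349.9 CPM at 0 h and 992, 365 and 712 CPM at 24 h (unblocked adjusted p = 0.0837).

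The calls of many clock genes turned on the library labelled 0 h of Exp1. With all libraries 7 of 27 rose and 3 fell, against 13.9% and 15.3% of all tested genes. Without that library 14 rose and 2 fell, against 16.2% and 16.9%. TOC1, an evening repressor, stood at 28.1, 4.92 and 3.14 CPM at 0 h and 39.6, 42.2 and 36.1 CPM at 24 h and rose 3.26-fold (log2 1.70, SE 0.45, edgeR adjusted p = 0.00368), and 9.72-fold without the 0 h library of Exp1. PRR5 stood at 77.2, 0.949 and 1.14 CPM at 0 h and 8.01, 20.9 and 10.2 CPM at 24 h, so that its 24 h libraries lay above 2 of the 0 h libraries and below that of Exp1. Its log2 change of -1.02 (adjusted p = 0.313) became 3.64 (adjusted p = 1.85e-05) without that library. GI, a large protein of the evening, stood at 35.6, 2.61 and 1.52 CPM at 0 h and 21.3, 25.1 and 17.98 CPM at 24 h and had a log2 change of 0.69 (adjusted p = 0.495), and 3.36 without it (adjusted p = 0.000804). ELF4, a member of the evening complex, stood at 44.0, 1.93 and 1.76 CPM at 0 h and 7.56, 26.9 and 10.1 CPM at 24 h, with a log2 change of -0.10 (adjusted p = 0.933) and of 3.005 without it (adjusted p = 0.00111). FKF1 stood at 37.9, 0.644 and 0.619 CPM at 0 h and 3.91, 9.10 and 3.48 CPM at 24 h, with -1.25 (adjusted p = 0.18) and 3.11 (adjusted p = 6.05e-05).

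Other clock genes did not hang on that library. RVE8, a morning activator, stood at 25.8, 41.1 and 42.3 CPM at 0 h and 12.3, 13.2 and 15.4 CPM at 24 h and fell 2.67-fold (log2 -1.42, SE 0.29, edgeR adjusted p = 0.000237). CHE, a repressor of CCA1, stood at 123, 231 and 132 CPM at 0 h and 22.2, 21.1 and 30.1 CPM at 24 h and fell 6.62-fold (log2 -2.73, SE 0.35, edgeR adjusted p = 2.56e-07). CDF3, a flowering repressor with a role in cold, stood at 17.95, 14.3 and 15.04 CPM at 0 h and 45.4, 51.1 and 38.5 CPM at 24 h and rose 2.86-fold (log2 1.51, SE 0.33, edgeR adjusted p = 0.000635). CO, which promotes flowering in long days, stood at 0.0748, 0.0678 and 0 CPM at 0 h and 0.986, 1.79 and 1.11 CPM at 24 h and rose 23.6-fold (log2 4.56, SE 0.99, edgeR adjusted p = 0.000548) from levels near the limit of detection. LHY, a morning factor of the central loop, stood at 184, 196 and 158 CPM at 0 h and 161, 129 and 152 CPM at 24 h and was not called. Leaving out single libraries other than that of Exp1 at 0 h moved the number of risen members by over 1.5 times in 3 cases. It was 4 without the 24 h library of Exp1, 3 without the 0 h library of Exp2 and 4 without that of Exp3. CCA1 and LKP2 were also not called without the 24 h library of Exp2 (edgeR adjusted p = 0.121 and 0.0794) or that of Exp3 (0.0554 and 0.0662).

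**Figure D5:**
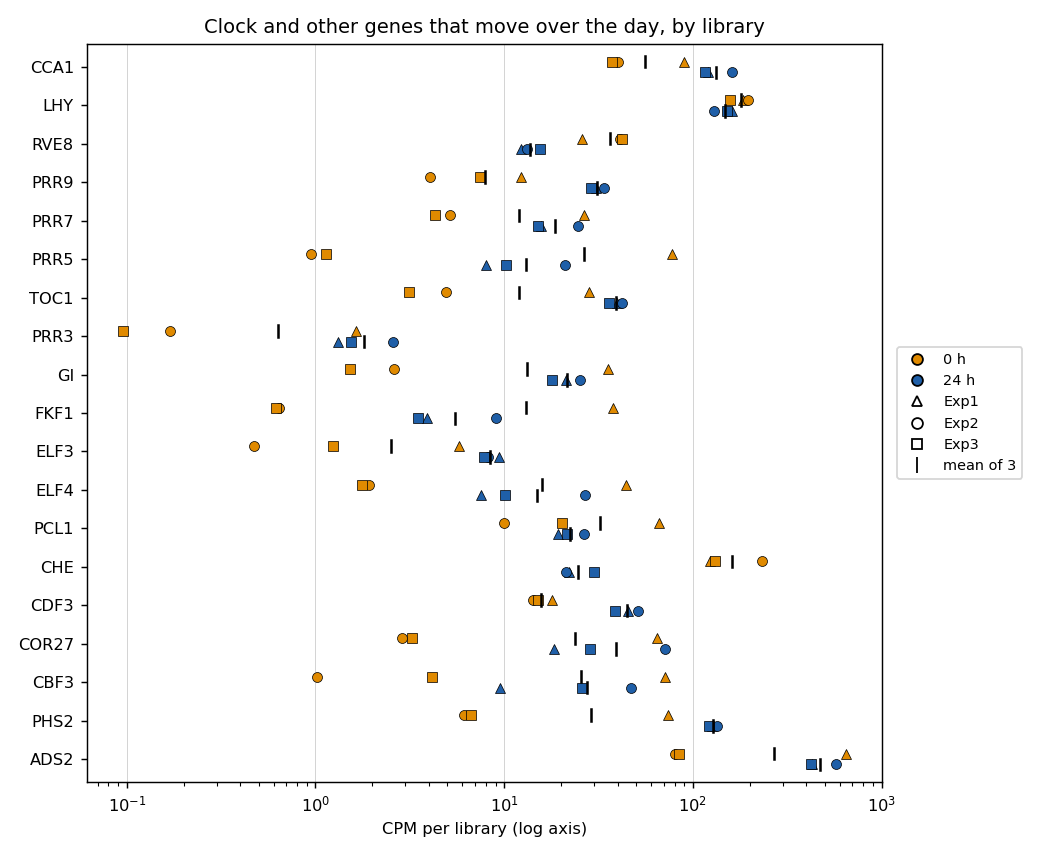
Level of 19 clock, cold and starch genes in each of the 6 libraries, in CPM on a log axis, with orange for 0 h, blue for 24 h and triangles, circles and squares for Exp1, Exp2 and Exp3; bars are means of 3. In PRR5, FKF1 and ELF4 the triangle of 0 h lies above every 24 h library while the other 0 h libraries lie below them.

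GRP7 holds the evening element, AAAATATCT, which clock proteins of the morning bind, more than once in the same 250-base window, and is shown for that reason. Capitals mark the element or its reverse complement AGATATTTT. GRP7 lies on the minus strand, at chr2:9266558-9266807.
GRP7: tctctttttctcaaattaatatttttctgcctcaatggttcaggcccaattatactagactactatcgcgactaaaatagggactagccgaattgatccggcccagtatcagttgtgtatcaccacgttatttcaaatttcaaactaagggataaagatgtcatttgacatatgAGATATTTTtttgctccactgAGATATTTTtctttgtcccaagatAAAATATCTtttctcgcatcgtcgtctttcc
The elements of GRP7 begin 76, 55 and 31 bases before the start. The element was found in 2.52% of all tested windows, in 6.25% of those of genes that rose 8- to 16-fold and in 3.57% (2 of 56) of those that rose at least 16-fold.

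A few lists served as background, to be read beside the 13.9% of all tested genes that rose and the 15.3% that fell. Of 11 genes used as reference in expression work 1 rose, the elongation factor gene AT5G60390 (2.15-fold (adjusted p = 0.0376)), which was not called when the Exp1 or Exp3 library of 24 h or the Exp2 or Exp3 library of 0 h was dropped, with adjusted p from 0.0512 to 0.218. The median log2 change of the 11 was -0.11. Of 15 heat shock genes tested 1 rose and 3 fell, with 1 fallen under library totals, and 1 when the 0 h library of Exp2 or the 24 h library of Exp1 was dropped; HSC70-1, a constitutive chaperone, stood at 804, 979 and 607 CPM at 0 h and 2276, 2105 and 1610.4 CPM at 24 h and rose 2.51-fold (log2 1.33, SE 0.36, edgeR adjusted p = 0.00523). Of 11 vernalization and flowering genes 2 rose, and 1 without the 24 h library of Exp2 or any single 0 h library. MAF3, a relative of FLC, rose 2.24-fold (log2 1.16, SE 0.20, edgeR adjusted p = 3.46e-05), while FLC itself, the repressor that weeks of cold silence, stood at 1.83, 2.37 and 2.24 CPM at 0 h and 1.67, 1.28 and 1.51 CPM at 24 h.

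Outside the lists, the genes with the largest rises included AZI1, a lipid transfer-like protein of systemic immunity, which stood at 68.5, 8.14 and 10.1 CPM at 0 h and 381, 1193 and 622 CPM at 24 h and rose 25.3-fold (adjusted p = 6.64e-06), and 80.5-fold without the 0 h library of Exp1. ADH1, the alcohol dehydrogenase, stood at 11.4, 3.69 and 3.52 CPM at 0 h and 106, 198 and 120.3 CPM at 24 h and rose 22.7-fold (log2 4.51, SE 0.46, edgeR adjusted p = 3.14e-09), and 39.2-fold without the 0 h library of Exp1. AT1G16850, which RefSeq annotates as an uncharacterized protein, stood at 9.87, 4.00 and 4.71 CPM at 0 h and 158, 372 and 232 CPM at 24 h and rose 41.0-fold (log2 5.36, SE 0.68, edgeR adjusted p = 2.02e-07). AT2G23910, annotated as a Rossmann-fold protein, stood at 14.4, 2.31 and 5.19 CPM at 0 h and 201, 277 and 252 CPM at 24 h and rose 33.2-fold (adjusted p = 1.08e-06), and 65.4-fold without the 0 h library of Exp1. Among the largest falls, AT4G12690, of unknown function, stood at 5.09, 11.8 and 10.6 CPM at 0 h and 0.209, 0.190 and 0.228 CPM at 24 h and fell 43.0-fold (log2 -5.43, SE 0.63, edgeR adjusted p = 4.87e-08). DREB26, an ethylene response factor relative, stood at 68.1, 140.0 and 55.6 CPM at 0 h and 1.70, 3.83 and 2.42 CPM at 24 h and fell 33.1-fold (log2 -5.05, SE 0.95, edgeR adjusted p = 9.04e-05).

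The same step in older and in primed plants was set beside that of the 28-day plants. The 3 responses share no library. In C35P 5958 genes were called (28.8%), 3055 higher (14.7%) and 2903 lower (14%). Of the risen genes of C28P, 2214 rose in C35P as well, which is 77.1% of the C28P genes and 72.5% of the C35P genes, and of the fallen genes 2265 did (71.6% and 78.0%). In C28PLT 5364 genes were called (25.9%), 3019 higher (14.6%) and 2345 lower (11.3%), of which 1862 shared the rise (64.8% and 61.7%) and 1664 the fall (52.6% and 71.0%). The difference of the responses was tested for every gene. It was called for 0 genes between C35P and C28P by edgeR (417 at an unadjusted p under 0.05, smallest adjusted p 0.176) and for 5 by DESeq2. Between C28PLT and C28P it was called for 0 genes by edgeR (1461 at an unadjusted p under 0.05, smallest adjusted p 0.155) and for 45 by DESeq2. Leaving out the 0 h library of Exp2 gave 7 and 33 such genes, and that of Exp3 gave 8 and 16.

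Several values stood side by side as follows. COR and LEA genes rose in 15 members in C28P and in 17 each in C35P and C28PLT, with medians of 3.002, 3.87 and 3.75, and without the library labelled 0 h of Exp1 the C28P median was 3.63. Ribosome assembly genes rose in 20 of 20 in each condition. Aquaporins fell in 14, 13 and 12 of 17. GOLS3 rose by a log2 change of 3.60 in C28P, 6.84 in C35P and 6.34 in C28PLT, and the difference between C35P and C28P was 3.24 (SE 1.02, adjusted p = 1). Without the library labelled 0 h of Exp1 the change of GOLS3 in C28P was 6.41. TCH4, PHI-1 and EXLA1 are given because their log2 changes were unlike across the conditions, and they were chosen after their values were seen. The log2 change of TCH4 was -5.37 in C28P, -5.98 in C35P and -0.86 in C28PLT, with a difference between C28PLT and C28P of 4.51 (SE 1.20, adjusted p = 0.287). PHI-1 changed by -5.86 in C28P, -6.56 in C35P and -0.30 in C28PLT, a difference of 5.56 (SE 1.49, adjusted p = 0.287). EXLA1, an expansin-like gene, changed by -3.54, -3.10 and 1.61, a difference of 5.14 (SE 1.30, adjusted p = 0.287). Without the 0 h library of Exp2 the C28P changes of TCH4 and PHI-1 were -4.39 and -5.06. The fall of EXLA1 in C28P was not called without the 0 h library of Exp2 (log2 -2.12, adjusted p = 0.0977). None of these differences passed the adjusted threshold. PIF4, by contrast, changed by -3.95, -3.68 and -3.96, and the differences from C28P were 0.27 (SE 0.37, adjusted p = 1) and -0.01 (SE 0.38, adjusted p = 0.996).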

How the data were processed

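The deposited table holds raw counts of reads per gene, 36632 genes by 54 libraries (0 columns without a sample). Per the labels' protocols, total RNA of pooled rosette material was extracted with Trizol, treated with DNase and made into libraries with a directional kit. Per the submitters' processing notes the authors used Trimmomatic, STAR 2.7.9a and DESeq2 on the build TAIR10. Not given in the sources used here were the annotation, the strand setting and how reads that match several genes were counted. Overlapping and antisense genes are uncertain for that reason, as are close copies.

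Counts were tested with edgeR 4.0.16 (R 4.3.3): filterByExpr with a minimum count of 10 kept 20720 genes (56.6%), and a quasi-likelihood fit, robust and TMM-scaled, gave each of the 18 groups 1 coefficient, with 36 residual degrees of freedom and Benjamini-Hochberg adjustment over all tested genes. A gene was called at an adjusted p under 0.05. CPM are TMM-scaled, folds come from the fit, each SE belongs to a log2 fold change, and every group has n = 3 libraries. Per the labels the 3 libraries of a group come from independent experiments, each a pool of 5 samples. On simulated counts with 200 changed genes of 20720, this comparison recovered 15% of 2-fold and 71% of 4-fold changes, with 3 false calls of 89. In the data 6038 genes were called. The Benjamini-Hochberg cut-off is stricter where fewer genes change, so that these recoveries need not hold for the data. The common dispersion was 0.12, so that the spread between libraries, not the counting error, limited the precision. Pairs of libraries within a group differed by 40.3 to 116 times the counting error (chi-square per degree of freedom), so no library was a copy.

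The replicate number names an experiment and so pairs the samples. Same-numbered 0 h and 24 h libraries deviated together from their group means (r = 0.209, 0.270 and 0.242). Other pairs stood at -0.0297 or below, but deviations from a group mean sum to 0, so that their sign is no separate evidence. The block was an alternative, as were other scalings (upper quartile, totals), other filters, the 6 libraries alone, a transcript length offset, DESeq2 1.42.0 and leaving out each library. The fit with the block and without the 0 h library of Exp1 was added after seeing the data.

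The 44 gene lists (563 genes) and the 6 libraries were chosen with earlier results of these data known. The text names list members, per direction the 15 largest called changes with at least 5 CPM in a group, the same sign in 3 experiments and a call also without the 0 h library of Exp1, the 10 largest gains and losses of CPM, and the 10 genes with most reads at each time. A further part of the rule, for genes that differ between conditions, named 0. Examples were taken mainly from genes called in every fit that left out a library, and this preference was set with their values known. All 36632 gene IDs matched the RefSeq annotation of TAIR10.1, from which names, lengths of the longest transcript and promoter windows come. Gene coordinates are from that assembly, not from the deposited table. A gene named by the rule and a promoter window are not reported here.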

Additional observations from a re-analysis of the deposited data

How the results depend on the processing

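Over the alternatives that kept all 6 libraries, 4729 to 7909 genes were called, 2123 to 4274 risen and 1934 to 4082 fallen, and 3899 to 4999 changed at least 2-fold. The lowest count of fallen genes, 1934, came from scaling by library totals. The replicate block gave 6768 called genes, 3262 risen and 3506 fallen; of the named genes it added a call for 20 and removed it for 0, and it moved 5 of the counts of risen or fallen list members by over 1.5 times: beside the jasmonate and nitrate counts given above, 2 photoprotection genes fell in place of 1, 1 expansin rose in place of 0 and 1 vernalization and flowering gene fell in place of 0. Without 1 library at a time, 4125 to 6961 genes were called, 1881 to 3407 risen, 2244 to 3554 fallen and 3233 to 5502 changed at least 2-fold. Genes with a different change numbered 0 to 8 for C35P and 0 to 33 for C28PLT in those fits, and 5 and 45 in DESeq2. They were not tested in the fits of the 6 libraries alone.

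Without the 0 h library of Exp1, 4 named genes reversed, and again with the block added: AT4G33980 from -1.12 to 2.199 and 2.37, PRR5 from -1.02 to 3.64 and 3.76, ELF4 from -0.10 to 3.005 and 3.11 and FKF1 from -1.25 to 3.11 and 3.16 on the log2 scale. The lowest values of these genes without 1 library were -1.81 for AT4G33980, -1.59 for PRR5, -0.85 for ELF4 and -1.82 for FKF1. In that fit, which holds fewer samples by construction, 26 other named genes gained a call and 16 lost it. Leaving out any other library removed the call of 34 to 54 named genes. Upper-quartile scaling changed no call among the 574 named genes, library totals removed 35 and added 16, DESeq2 removed 1 and added 17, and the length offset with the block removed 4 and added 33.

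With 3 libraries a group, no call is no sign of an unchanged gene. Genes near 1 CPM rest on few reads. The added day of age, the dimmer light and the cold come together in every value.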

Other observations

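Gene families outside the lists, chosen after their values were seen and matched by product name in the RefSeq annotation, also had more called members in 1 direction than in the other. Over all tested genes 13.9% rose and 15.3% fell. Pentatricopeptide repeat proteins, which edit and process RNA in chloroplasts and mitochondria, had 135 risen and 2 fallen members of 255 tested, with a median log2 change of 1.31. Their transcripts are long, with a median of 2243 nt against 1688 nt over all tested genes. With the length offset and the block 148 rose and 5 fell, at a median of 1.09, and in C35P and C28PLT 112 and 71 rose. Chaperonin subunits, which fold proteins in the chloroplast and cytosol, rose in 11 of 18 and fell in 0. WD40 repeat proteins, a large class of scaffold proteins, had 41 risen and 3 fallen members of 126.

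On the falling side, SAUR proteins, small auxin-induced regulators of cell expansion, fell in 32 of 62 and rose in 0, with a median of -1.59. Their transcripts are short, with a median of 832 nt. With the length offset 30 fell and 3 rose. Arabinogalactan proteins of the cell surface fell in 24 of 44 and rose in 0, and 23 fell with the length offset. GDSL lipases, a large family of esterases, had 22 fallen and 3 risen members of 56, against 15.3% and 13.9% of all tested genes. Their median log2 change was -0.42. With library totals 16 fell and 5 rose, at a median of -0.08.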
